A study of Mus musculus with 20 samples.

Results

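Amino acid transporters carry amino acids across the plasma membrane, and 8 of their genes were followed in mouse keratinocytes that had or lacked a gene of glucocorticoid synthesis: Slc1a5, Slc1a4, Slc38a1, Slc38a2, Slc3a2, Slc7a5, Slc7a11 and Slc7a1. They were taken by symbol from the 25719 genes of the deposited count table, and all 8 were found there. Slc1a5 was chosen by its measured genotype by route interaction, the difference between the knockout effect under injected and under topical tamoxifen, and the other 7 joined it as carriers of related substrates. The value that chose Slc1a5 is therefore given as a description with no test. Of the 8 genes, 7 passed the filter on low counts, and Slc38a1 did not.

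RNA was sequenced from keratinocytes sorted from ear and dorsal skin of 20 mice, 5 in each of 4 groups. The knockout mice (cKO) were K14-CreERTam x Cyp11b1 L2/L2, in which the Krt14 promoter drives a tamoxifen-dependent Cre in basal keratinocytes and Cre removes the floxed part of Cyp11b1. Controls were Cyp11b1 L2/L2 littermates without Cre, so all 4 groups carried the floxed alleles and all received tamoxifen for 5 days, with cells taken on day 6. Topical mice were shaved on the back and given tamoxifen in ethanol, 20 µl on the ear and 100 µl on the back, and systemic mice were injected into the peritoneum with 100 µl at 10 mg/ml in oil and ethanol. Route, shaving and vehicle cannot be told apart in any comparison of systemic with topical mice. Controls lack Cre as well as the deletion, so Cre and the loss of Cyp11b1 cannot be told apart either.

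Most amino acids enter cells through a small set of carriers with overlapping substrates. Accumulating carriers coupled to sodium, such as Slc38a1 and Slc38a2, load the cell with small neutral amino acids. Exchangers such as Slc1a5, Slc1a4 and the Slc7a5 heterodimer then trade these for others. Slc3a2 is the heavy chain that brings Slc7a5, Slc7a11 and several other light chains to the membrane. In many cell types ATF4 raises the transcription of several of these carriers when amino acids are scarce. In epidermis, imported cystine and glutamine feed glutathione, protein and barrier synthesis.

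Library totals ran from 11.6 to 50.1 M counts, and 40 pairs of libraries of the same group correlated at 0.932 to 0.986 across genes. The keratinocyte markers Krt5, Krt14, Krt1, Krt10, Trp63 and Itga6 summed to between 69900 and 104000 CPM, counts scaled to the library total. Markers of epidermal immune cells reached at most 33.7 CPM, of fibroblasts 40.6, of melanocytes 36.6, of endothelium 11.7, of hair follicle 44, of skeletal muscle 6.72, of erythroid cells 7.25 and of sebaceous gland 286. The targeted gene, Cyp11b1, had 0 to 6 counts in any library and 0 in 11 of 20, controls included, so its level could not check the genotype labels at this depth. In 6 libraries, all 5 systemic controls and systemic cKO 2, satellite-like transcripts of 12 predicted genes exceeded 50 CPM. Some results that use these libraries are also given with a covariate for them or without them. No topical library exceeded that level, so in controls route and these transcripts cannot be told apart, with or without the covariate. In bulk RNA, fewer cells of a kind and less RNA per cell cannot be told apart.

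Start-site sequences are shown for 4 of the carriers because short motifs read by known regulators of amino acid transport occur there. They come from RefSeq windows of GRCm38.p6, which were found for 5 of the 8 genes, 6 windows in all, each 300 bases long. No window was found for Slc1a5, Slc7a5 or Slc38a1, so their start sites were not searched. The stretches below, all on the minus strand, run 5′ to 3′ from 100 bases before the start site to 10 after it, with motif matches in capitals.
Slc7a11, chr3:50443604-50443713: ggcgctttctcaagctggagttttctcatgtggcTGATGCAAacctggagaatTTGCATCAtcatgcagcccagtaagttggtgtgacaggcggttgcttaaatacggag
Slc1a4, chr11:20332704-20332813: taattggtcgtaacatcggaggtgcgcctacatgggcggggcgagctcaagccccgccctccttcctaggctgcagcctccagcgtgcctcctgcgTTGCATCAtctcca
Slc7a1, chr5:148399895-148400004: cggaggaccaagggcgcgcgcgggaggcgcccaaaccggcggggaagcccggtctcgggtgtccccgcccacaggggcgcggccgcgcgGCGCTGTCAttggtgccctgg
Slc38a2, chr15:96699719-96699828: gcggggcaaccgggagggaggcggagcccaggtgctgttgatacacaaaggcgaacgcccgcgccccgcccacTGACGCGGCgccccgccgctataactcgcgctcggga
Slc7a11 and Slc1a4 held the amino acid response element, searched as TGATGNAA on both strands: Slc7a11 once on each strand, starting 66 and 47 bases before the start site, and Slc1a4 across its start site on the opposite strand. That motif was in 3.97% of 32851 promoter windows of the same length. Slc7a1 and Slc38a2 held the core of the antioxidant response element, TGACNNNGC, which was in 12.4% of windows. No member window matched the E-box CACGTG (7.15% of windows) or the glucocorticoid response element (0.475%), whose arms GNACA and TGTNC were required around NNN, both searched on both strands. A match is a run of letters, not a bound site, and the second start site of Slc7a1 and the window of Slc3a2 held none of the 4 motifs.

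Scaled by exon length, the carriers spanned a wide range of levels in sorted keratinocytes. Slc3a2, the shared heavy chain, averaged 72.3 ± 15.6 CPM per kb of exon over the 20 libraries (SD), and Slc38a2, the accumulating carrier of small neutral amino acids, 44.1 ± 7.79. Slc3a2 was above Slc38a2 in 20 of 20 libraries. Slc1a4, an exchanger of alanine, serine and cysteine, followed at 5.05 ± 1.44 CPM per kb and was also below Slc38a2 and above Slc1a5 in 20 of 20. The next 4 lay close together on that scale: Slc1a5 at 1.12 ± 0.377, Slc7a1 at 1.01 ± 0.292, Slc7a5 at 0.939 ± 0.357 and Slc7a11 at 0.645 ± 0.262. Neighbours among these 4 did not differ beyond their spread, since the upper one was higher in 11, 12 and 13 of 20 libraries. Slc38a1 was at the bottom, with 0.00336 CPM per kb. The heavy chain Slc3a2 was thus far above the light chains Slc7a5 and Slc7a11 per length of transcript.

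**Figure D1:**
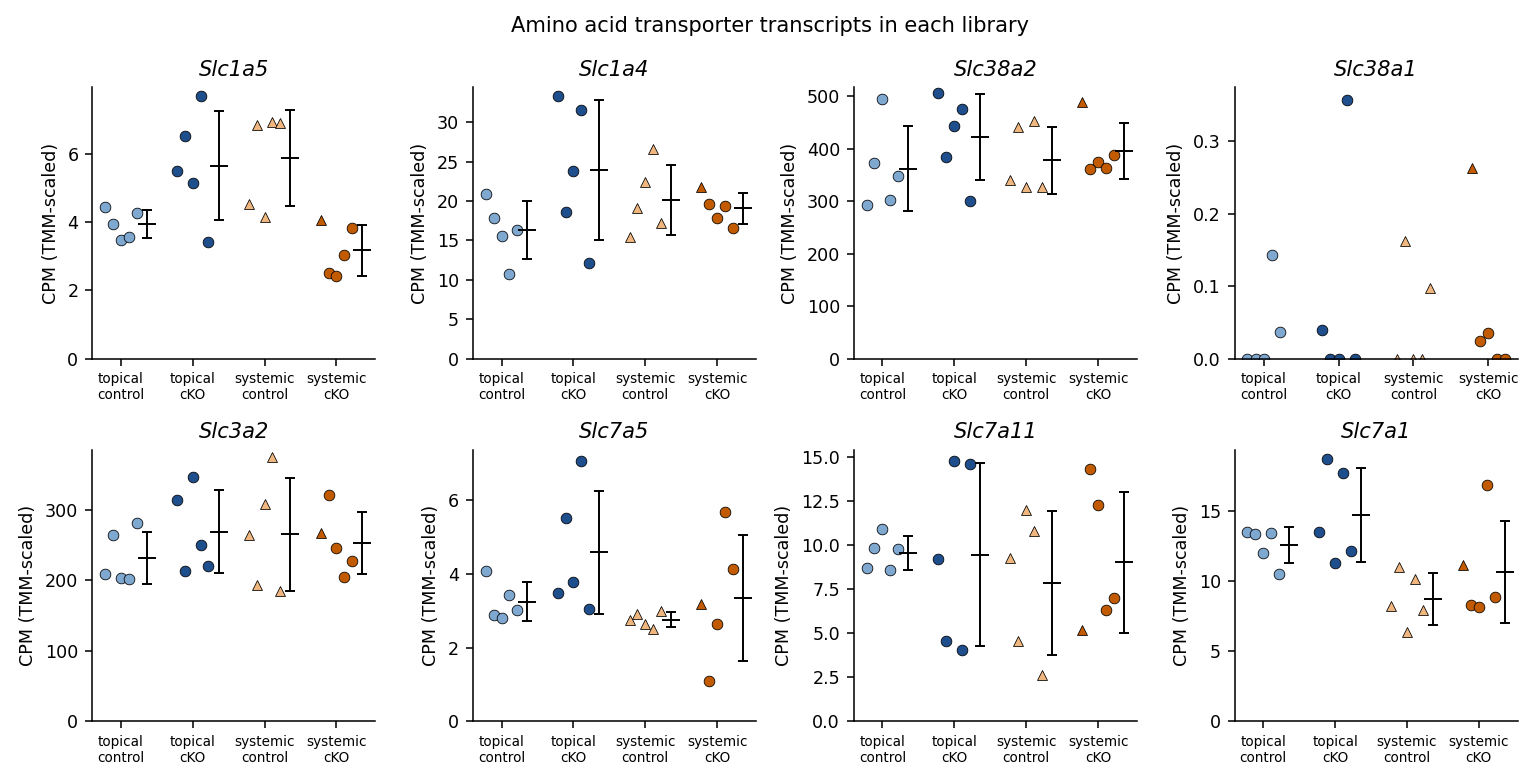
Each panel shows 1 carrier, with its level in CPM (scaled with TMM factors, axis from 0) in every library of the 4 groups. Dots and triangles are mice, triangles mark the 6 libraries high in satellite-like transcripts, and bars give the mean ± SD of 5 mice except for Slc38a1. The systemic cKO libraries of Slc1a5 (2.42 to 4.05 CPM) lie below all systemic controls (4.15 to 6.93 CPM), and systemic libraries of Slc7a1 lie mostly below topical ones.

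Slc1a5 (ENSMUSG00000001918, chr7:16781340-16798274, plus strand, GRCm38) encodes ASCT2, the sodium-dependent exchanger best known for taking up glutamine. In topical controls its level was 4.44, 3.94, 3.48, 3.57 and 4.25 CPM, and in topical cKO mice 5.48, 6.51, 5.15, 7.68 and 3.40 CPM. In these groups 4 of 5 knockouts were above every control and cKO 7 was below all of them. In systemic controls the level was 4.53, 6.84, 4.15, 6.93 and 6.90 CPM, and in systemic cKO mice 4.05, 2.52, 2.42, 3.04 and 3.81 CPM. Here every knockout was below every control, with a gap of 4.05 to 4.15 CPM between the nearest libraries. Groups without overlap between these conditions occurred for 1.94% of all genes tested.

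As a description of what chose the gene, the log2 fold change of Slc1a5 from control to cKO was 0.53 (SE 0.21) with topical and -0.92 (SE 0.21) with systemic tamoxifen. The difference of these effects, the interaction, was -1.45 (SE 0.30, 95% interval -2.07 to -0.82), in a contrast where 0.25% of genes were called. From topical to systemic mice, Slc1a5 differed by 0.58 (SE 0.21) in controls and by -0.87 (SE 0.21) in cKO mice on the log2 scale. With a covariate for satellite-like transcripts the interaction was -1.08 and the route difference in controls was 0.19. The systemic genotype difference was -0.61 with that covariate and -1.01 without systemic cKO 2. Counts behind these levels were small, 39 to 301 reads a library.

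Averages over the other factor do not depend on the interaction, so Slc1a5 could be tested there. It did not pass in either. From topical to systemic mice, averaged over genotypes, its log2 fold change was -0.15 (SE 0.15, 95% interval -0.46 to 0.16, adjusted p = 0.487, edgeR quasi-likelihood test). From control to cKO, averaged over routes, it was -0.19 (SE 0.15, 95% interval -0.50 to 0.12, adjusted p = 0.863, same test).

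Slc1a4 (ENSMUSG00000020142, chr11:20302180-20332713, minus strand) encodes ASCT1, the nearest relative of Slc1a5, whose substrates are alanine, serine, cysteine and threonine. Its level was 20.9, 17.8, 15.6, 10.8 and 16.3 CPM in topical controls and 33.3, 18.6, 23.8, 31.6 and 12.1 CPM in topical cKO mice. Of the knockouts, 3 exceeded every control, but cKO 7 was among the lowest libraries, as it was for Slc1a5. Systemic controls had 15.4, 19.1, 22.4, 26.6 and 17.2 CPM, and systemic cKO mice had 21.8, 19.6, 17.9, 19.4 and 16.6 CPM, so these groups overlapped almost fully. The topical genotype difference was 0.56 (SE 0.22, 95% interval 0.10 to 1.01) on the log2 scale, with an unadjusted p = 0.0185 and an adjusted p = 0.799 from edgeR. It was the only 1 of the 6 members tested with an unadjusted p under 0.05 in that comparison, beside 703 of 12424 genes. The interaction of Slc1a4, given with no test, was -0.64 (SE 0.31).

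System A carriers use sodium to accumulate alanine, serine and glutamine. Slc38a2 (ENSMUSG00000022462, chr15:96687392-96699730, minus strand), which encodes SNAT2, was the steadiest member, with an SD within groups of 0.26 on the log2 scale. Its mean was 362 ± 80.6 CPM in topical controls, 422 ± 81.8 in topical cKO, 378 ± 63.3 in systemic controls and 396 ± 53.1 in systemic cKO mice (SD, n = 5). The 20 libraries ran from 293 to 506 CPM, and all 4 groups overlapped. Its log2 differences lay between -0.09 and 0.22 in the 6 contrasts, with adjusted p-values of 0.823 to 0.997 from edgeR. Slc38a1 (ENSMUSG00000023169, chr15:96571418-96642913, minus strand), which encodes SNAT1, had 30 reads in all and a read in 9 of 20 libraries. No fold is given for it, since group means of 0.0360, 0.0793, 0.0518 and 0.0648 CPM (topical control, topical cKO, systemic control, systemic cKO) rest on 0 to 14 reads a library.

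Slc3a2 (ENSMUSG00000010095, chr19:8706882-8723369, minus strand) encodes 4F2hc (CD98), a glycoprotein that also binds integrins. Its level was 209, 264, 204, 202 and 281 CPM in topical controls and 315, 214, 347, 250 and 220 CPM in topical cKO mice. Systemic controls had 265, 193, 308, 376 and 185 CPM, the widest group, and systemic cKO mice had 268, 321, 246, 205 and 227 CPM. All groups overlapped. Its log2 differences lay between -0.09 and 0.22 in the 6 contrasts, and its 95% interval for the averaged genotype effect was -0.23 to 0.38.

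Slc7a5 (ENSMUSG00000040010, chr8:121881150-121907694, minus strand) encodes LAT1, the Slc3a2 partner that imports leucine and other large neutral amino acids. Its level was 4.09, 2.89, 2.80, 3.43 and 3.03 CPM in topical controls and 3.49, 5.53, 3.77, 7.07 and 3.05 CPM in topical cKO mice. Systemic controls were tight at 2.74, 2.91, 2.63, 2.5 and 2.99 CPM, whereas systemic cKO mice spread over 3.17, 1.10, 2.64, 5.69 and 4.13 CPM. The averaged genotype difference was 0.38 on the log2 scale (SE 0.21, 95% interval -0.07 to 0.82, edgeR adjusted p = 0.76). The averaged route difference was -0.37 (SE 0.21, 95% interval -0.81 to 0.08, edgeR adjusted p = 0.208). Neither passed, and the intervals leave room for changes of about the size seen for Slc7a1.

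Slc7a11 (ENSMUSG00000027737, chr3:49892526-50443614, minus strand) encodes xCT, the Slc3a2 partner that imports cystine in exchange for glutamate. It varied most within groups, with an SD of 0.73 on the log2 scale. Topical controls were alike at 8.73, 9.83, 10.9, 8.57 and 9.79 CPM, whereas topical cKO mice had 9.24, 4.55, 14.8, 4.06 and 14.6 CPM. Systemic controls had 9.26, 4.53, 12.0, 10.8 and 2.60 CPM, and systemic cKO mice had 5.20, 14.3, 12.3, 6.32 and 7 CPM. Outside the topical controls, each group thus held libraries near 5 CPM or below and libraries above 11 CPM. The averaged genotype difference was 0.11 (SE 0.28) and the averaged route difference -0.17 (SE 0.28) on the log2 scale, with edgeR adjusted p-values of 0.981 and 0.685.

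Slc7a1 (ENSMUSG00000041313, chr5:148327410-148399904, minus strand) encodes CAT-1, the main importer of arginine and lysine in many cells. Topical controls had 13.5, 13.3, 12.0, 13.4 and 10.5 CPM, and topical cKO mice had 13.5, 18.7, 11.3, 17.7 and 12.1 CPM. Systemic controls had 8.17, 11, 6.32, 10.1 and 7.95 CPM, and systemic cKO mice had 11.1, 8.31, 8.12, 16.8 and 8.82 CPM. Every topical library was above 10 CPM, and 6 of 10 systemic libraries were below 9 CPM. Systemic cKO 6, at 16.8 CPM, was the highest systemic library. Averaged over genotypes, Slc7a1 fell from 13.6 to 9.66 CPM in systemic against topical mice, a log2 fold change of -0.50 (SE 0.14, 95% interval -0.79 to -0.21, edgeR adjusted p = 0.0112). It was the only called member of 7 in that contrast, where 27.4% of all genes were called and 13.1% were called lower. The call held with the satellite-like covariate (-0.57, edgeR adjusted p = 0.0338), and without each library in turn (-0.62 to -0.45).

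Within 1 genotype the route difference of Slc7a1 was similar in size but did not pass in the main fit. It was called in 4 of 10 alternative settings in controls and in 1 of 11 in cKO mice. In the main fit the difference was -0.53 (SE 0.20, edgeR adjusted p = 0.0674) in controls and -0.48 (SE 0.20, edgeR adjusted p = 0.14) in cKO mice. Without the 6 libraries high in satellite-like transcripts, the value in cKO mice was -0.49 (edgeR adjusted p = 0.187). Beside this route difference, summed markers of epidermal immune cells ran from 7.13 to 14.5 CPM in topical and from 7.16 to 33.7 CPM in systemic libraries. Of the 7 immune genes, Cd74 and H2-Aa made up most of the sum, while Ptprc was at 0 in 10 and Cd3e in 12 of 20 libraries. Erythroid markers summed to at most 3.55 CPM in topical and 7.25 CPM in systemic libraries. Melanocyte markers summed to at most 14 CPM in topical libraries, 36.6 CPM in systemic controls and 11 CPM in systemic cKO mice. Sums of fibroblast, endothelial, sebaceous, hair follicle and muscle markers had their maxima in topical libraries. The part of these markers in the difference was not tested.

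No member passed the test for genotype. With topical tamoxifen 0 of 6 members tested were called (0.129% of all genes) and 1 of 6 had an unadjusted p under 0.05. With systemic tamoxifen 0 of 6 were called (1.89% of all genes) and 0 of 6 had an unadjusted p under 0.05. Averaged over routes 0 of 7 were called (0.314% of all genes), again with 0 of 7 at an unadjusted p under 0.05. Of 12424 genes, 703, 1907 and 951 had an unadjusted p under 0.05 in these 3 contrasts. DESeq2 and limma also called 0 members in these 3 contrasts. With topical tamoxifen the log2 differences of the 6 tested members ran from -0.04 (Slc7a11) to 0.56 (Slc1a4). With systemic tamoxifen they ran from -0.08 (Slc1a4) to 0.28 (Slc7a1). The medians over all genes were 0.02 and -0.005. Route called 0 of 6 members in controls (18.3% of all genes) and 0 of 6 in cKO mice (9.22% of all genes). In each, 1 of 6, Slc7a1, had an unadjusted p under 0.05, beside 4085 of 12424 genes in controls and 2865 in cKO mice. In controls the route differences of the 6 tested members ran from -0.53 (Slc7a1) to 0.30 (Slc1a4). In cKO mice they ran from -0.50 (Slc7a5) to -0.02 (Slc7a11). The medians over all genes were 0.001 and -0.013. The genotype and route contrasts share groups, so their values are not independent of each other.

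**Figure D2:**
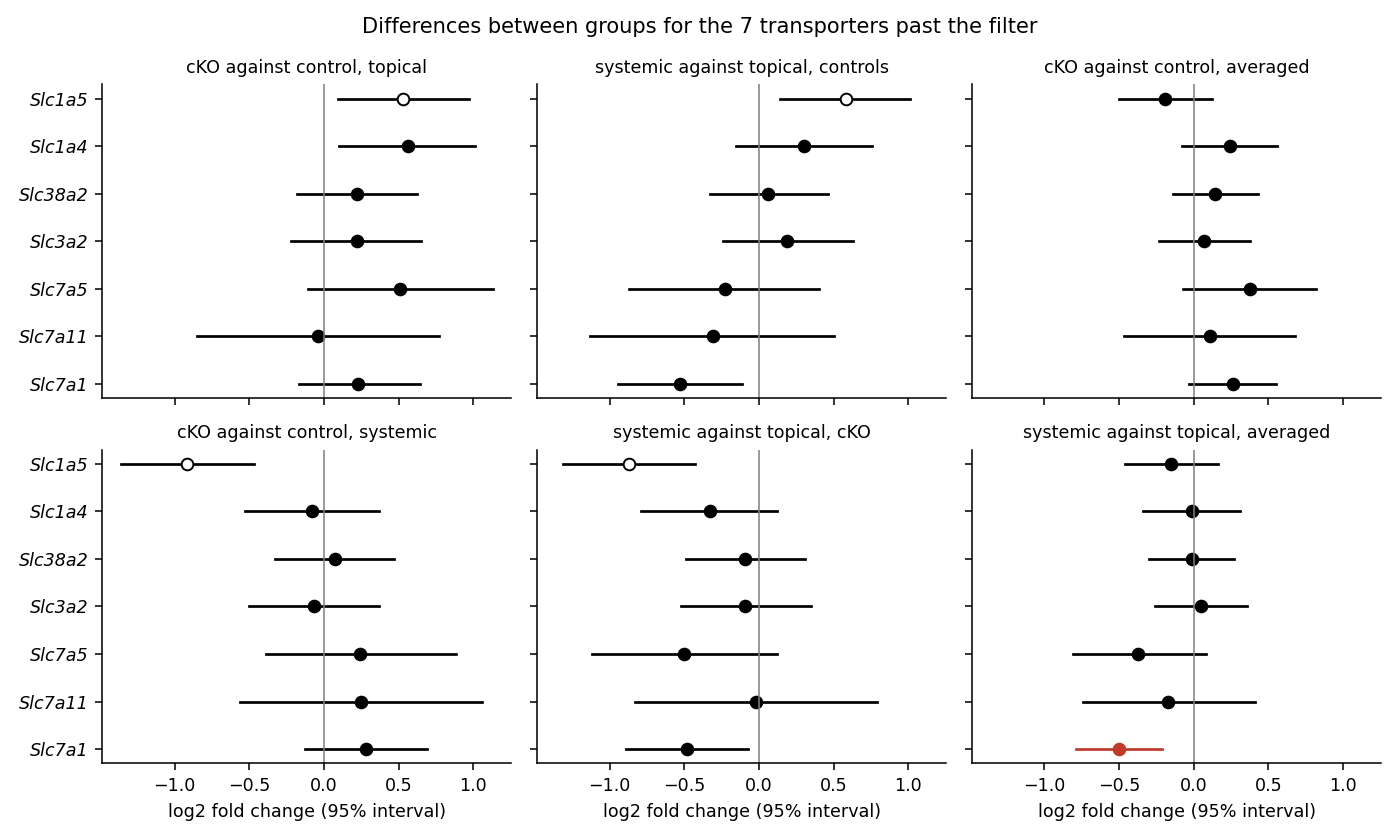
Log2 fold changes (x axis) with 95% intervals for the 7 carriers past the filter, in 6 contrasts of genotype and route. Filled points were tested, open points (Slc1a5) are descriptions, and red marks an adjusted p under 0.05. Slc7a1 in the averaged route contrast (-0.50) is the only red point, and the open points of Slc1a5 lie at 0.53 and -0.92 in the topical and systemic genotype contrasts.

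Mice of the same group differed from each other in a patterned way. After subtraction of group means, levels of the 7 carriers were set against 4 measures of the library: the mitochondrial share of counts, the total count, satellite-like transcripts and sex, 28 relations in all. The mitochondrial share, the percent of counts from genes of the mitochondrial genome, ran from 1.87 to 7.49%, with group means of 4.13% in topical controls, 4.79% in topical cKO, 3.96% in systemic controls and 5.02% in systemic cKO mice. Only relations with this share passed the adjustment over the 28, and 3 of 7 did so by Pearson r. Slc7a11 was lower where the mitochondrial share was higher, with Pearson r = -0.87 and Spearman rho = -0.86 over 20 libraries (permutation within groups, two-sided, p = 7e-05 and 2e-04, adjusted p = 0.00196 and 0.0056). Without the 2 libraries farthest from the median share, r was -0.83, and over the 14 libraries low in satellite-like transcripts it was -0.84.

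Slc3a2, the partner of Slc7a11, went the same way, with r = -0.72 and rho = -0.72 (permutation p = 0.00403 and 0.00388, adjusted p = 0.0376 and 0.0283), and r = -0.74 without the 2 farthest libraries. Slc7a5, the other light chain, went the opposite way, with r = 0.64 and rho = 0.70 (permutation p = 0.00197 and 0.002, adjusted p = 0.0276 and 0.028), and r = 0.57 without the 2 farthest. Slc7a1 had r = 0.63 and rho = 0.71 (permutation p = 0.0109 and 0.00404, adjusted p = 0.0766 and 0.0283), so it passed by rank but not by Pearson r, with r = 0.54 without the 2 farthest. Slc1a5 had r = 0.62 and rho = 0.59 (permutation p = 0.0174 and 0.0204, adjusted p = 0.0977 and 0.114) and did not pass. Slc1a4 (r = -0.06) and Slc38a2 (r = 0.21) showed little relation to the share. The origin of the differences in this share was not tested. The TMM factor, by which the levels are scaled, was not among the 4 measures. It ran from 0.78 in topical cKO 4 (share 2.67%) to 1.52 in systemic control 6 (share 6.42%), and its part was not tested. With the share as a covariate, the interaction of Slc1a5 was -1.42 and the averaged route difference of Slc7a1 -0.51 (edgeR adjusted p = 0.00178). Over 10 alternative settings, this covariate among them, the systemic genotype difference of Slc7a11 ran from -0.34 to 0.69 (main fit 0.25). It was called in 0 of them, with 0.0502 as the lowest adjusted p among edgeR, DESeq2 and limma fits.

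**Figure D3:**
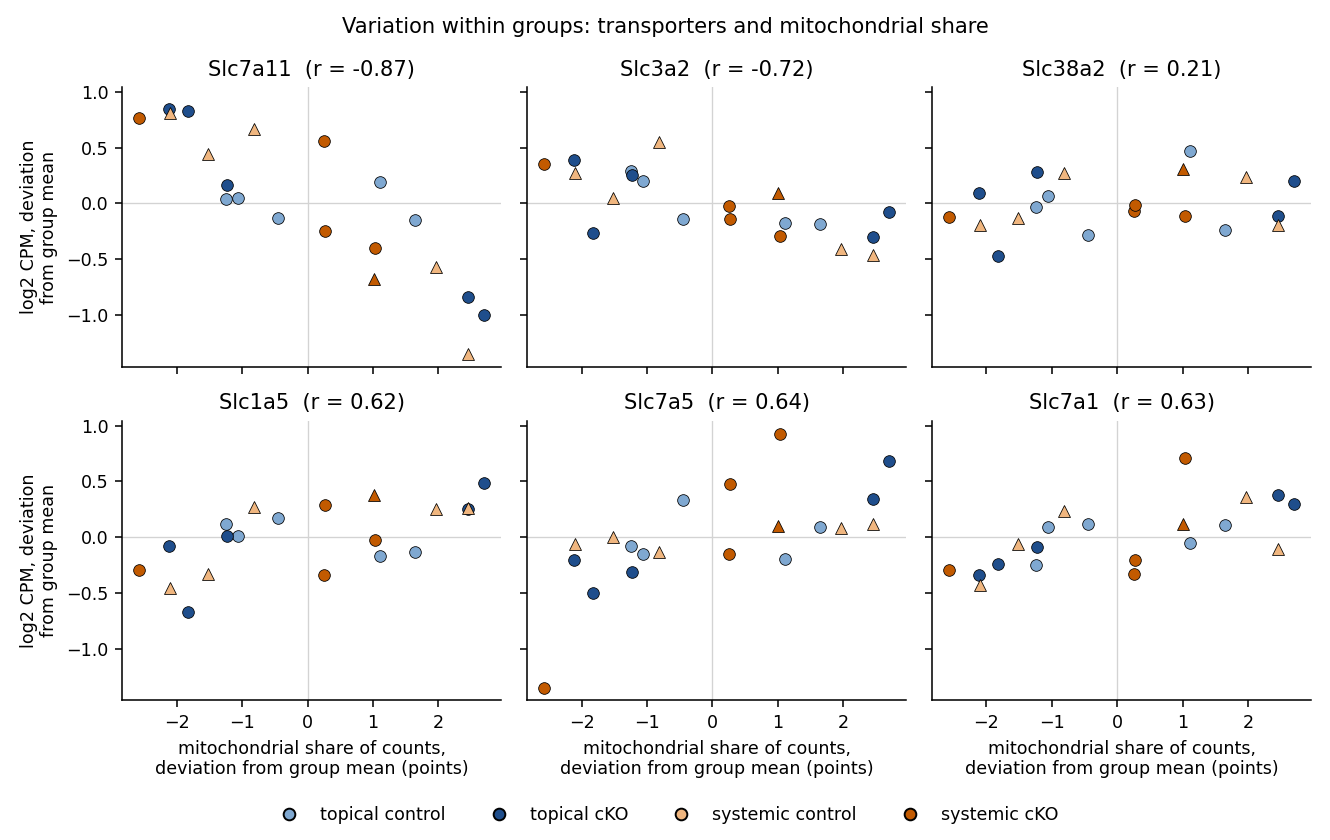
Deviations of 6 carriers from their group means (y axis, log2 CPM) against the deviation of the mitochondrial share of counts (x axis, percentage points), 1 point per library, with colours for the groups and triangles for the 6 libraries high in satellite-like transcripts. Slc7a11 (r = -0.87) and Slc3a2 (r = -0.72) fall along the axis, Slc7a5 (r = 0.64) rises, and Slc38a2 (r = 0.21) is nearly level.

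Pairs of carriers were compared in the same way, 21 relations in all, and 2 passed the adjustment. Slc7a5 and Slc7a11, light chains that share the heavy chain Slc3a2, varied in opposite directions, with r = -0.64 and rho = -0.81 (permutation within groups, p = 0.00041 and 3e-05, adjusted p = 0.00861 and 0.00063), and r = -0.70 without the 2 libraries farthest from the median of Slc7a5. Slc1a5 and Slc7a11 also varied in opposite directions, with r = -0.76 and rho = -0.74 (permutation within groups, p = 0.00304 and 0.00352, adjusted p = 0.0319 and 0.037), and r = -0.70 without the 2 farthest. Slc3a2 varied with Slc7a11 (r = 0.64) and against Slc7a5 (r = -0.48), though neither relation passed (adjusted permutation p = 0.0728 for both). Slc7a5, Slc7a11 and Slc3a2 each passed for a relation to the mitochondrial share of counts, and Slc1a5 (r = 0.62, adjusted permutation p = 0.0977) did not. The part of this share in the pairs was not tested.

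The genes whose pattern within groups was most like that of Slc1a5 were no carriers. By Pearson r of log2 CPM over the 20 libraries after subtraction of group means, they were Rnpc3 (0.90), a protein of the minor spliceosome, Gtf2ird1 (0.89), a transcription factor, Fam117a (0.87), Prr3 (0.86) and Bmp1 (0.86), a protease that processes procollagen. Over the 14 libraries low in satellite-like transcripts, these 5 had r from 0.85 to 0.93, and 3 of them were again among the top 5 of 12423 genes. Among carriers, Slc7a5 and Slc7a1 had r = 0.54, Slc1a4 0.50, Slc38a2 0.48, Slc3a2 -0.12 and Slc7a11 -0.76, which ranked 12357 of 12423. As a background, 234 genes had r over 0.7 and 228 had r under -0.7 with Slc1a5.

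Other genes that move, sense or use amino acids were read from 8 lists in the same fits, and changes of single genes are given as log2 fold changes. In the route contrast averaged over genotypes, 14.3% of all genes were higher and 13.1% lower in systemic mice, with a median of 0.003 on the log2 scale. Of 15 other plasma membrane carriers tested, 3 were higher and 1 lower, with a median of 0.31. Slc16a10, a carrier of aromatic amino acids, rose by 0.87 (SE 0.09, edgeR adjusted p = 3.32e-06), and Slc7a6, a further light chain of Slc3a2, rose by 0.64 (SE 0.21, edgeR adjusted p = 0.0285). The mean of Slc7a6 was 105 and 96.5 CPM in topical control and cKO mice against 174 and 141 CPM in systemic ones. Its call was lost with limma (adjusted p = 0.0564), without systemic control 4 (0.0626) and without systemic cKO 4 (0.0541). Slc6a6, the taurine carrier, fell by 0.91 on that scale (SE 0.29, edgeR adjusted p = 0.0221), a call lost with the satellite-like covariate (-0.86, adjusted p = 0.129) and without topical cKO 2 (-0.77, adjusted p = 0.0517).

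Of 7 lysosomal carriers tested, 1 was higher and 4 were lower, with a median of -0.38. Ctns, the cystine exporter of lysosomes, fell by 0.48 (SE 0.11, edgeR adjusted p = 0.00254), and Slc38a7, which releases glutamine and asparagine from lysosomes, by 0.56 (SE 0.13, edgeR adjusted p = 0.00272). Mfsd12, needed for cysteine import into lysosomes and melanosomes, rose by 0.34 (SE 0.10, edgeR adjusted p = 0.0166). With the satellite-like covariate 2 were lower, beside 5.33% of all genes, and Slc38a7 lost its call (adjusted p = 0.109).

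Of 13 genes of glutamine and glutamate metabolism, 1 was higher and 3 were lower, with a median of -0.16. Got2, the mitochondrial aspartate aminotransferase, fell by 1.46 (SE 0.17, edgeR adjusted p = 7.1e-06), with 18.3 CPM in systemic controls and 59.2 to 93.6 CPM in the other group means. Aldh18a1, which starts proline synthesis from glutamate, fell by 0.78 (SE 0.14, edgeR adjusted p = 0.000272), and Oat, ornithine aminotransferase, rose by 0.55 (SE 0.17, edgeR adjusted p = 0.0211). The count of lower genes was 5 without systemic control 5. Of 12 genes in the cystine and glutathione list, 0 were higher and 5 were lower, with a median of -0.39. Hmox1 and Nqo1, which are in the list but do not act in that metabolism, are among the 5. Hmox1, heme oxygenase, fell by 1.03 (SE 0.17, edgeR adjusted p = 0.00014), and Gss, glutathione synthetase, by 0.50 (SE 0.09, edgeR adjusted p = 0.000546). With the satellite-like covariate 4 of the 12 were lower, beside 5.33% of all genes.

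Of 21 genes of the ATF4 response to amino acid shortage, 2 were higher and 9 were lower, with a median of -0.43. Vldlr, a lipoprotein receptor, fell by 1.41 (SE 0.20, edgeR adjusted p = 5.5e-05), and Asns, asparagine synthetase, by 0.60 (SE 0.11, edgeR adjusted p = 0.000529). Atf3, a stress-induced transcription factor, rose by 0.85 (SE 0.20, edgeR adjusted p = 0.00322), and Nupr1, a stress-induced chromatin protein, by 0.55 (SE 0.19, edgeR adjusted p = 0.0374). Nupr1 was no longer called without any 1 of 8 libraries, namely topical control 1 or 5, topical cKO 2 or 5, systemic control 1 or 6, or systemic cKO 5 or 7. Atf4 itself, named after its value was seen, fell by 0.43 (SE 0.11, edgeR adjusted p = 0.00555). The count of lower genes was 3 with the satellite-like covariate, beside 5.33% of all genes, and 5 without topical control 3.

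Of 20 aminoacyl-tRNA synthetases, which charge tRNAs with amino acids, 0 were higher and 9 were lower, with a median of -0.28. Aars fell by 0.58 (SE 0.08, edgeR adjusted p = 3.39e-05) and Yars by 0.36 (SE 0.07, edgeR adjusted p = 0.00093). The count was 4 with the satellite-like covariate, beside 5.33% of all genes lower. It was 17 without systemic cKO 4, a fit that called 4027 genes in either direction against 3405 in the main fit. Of 23 genes by which mTORC1 senses amino acids, 3 were higher and 6 were lower, with a median of -0.08. Rraga, a Rag GTPase, fell by 1.10 (SE 0.12, edgeR adjusted p = 5.54e-06) and Flcn, which acts on Rag GTPases, by 0.57 (SE 0.09, edgeR adjusted p = 0.000149). The mean of Rraga was 25.8 CPM in topical control and 24.4 CPM in topical cKO mice, against 7.13 CPM in systemic control and 19 CPM in systemic cKO mice. Its route difference was -1.85 in controls (SE 0.18, edgeR adjusted p = 5.42e-06) and was not called in cKO mice. All systemic controls are among the libraries high in satellite-like transcripts, and with that covariate the averaged difference was -0.87 (adjusted p = 0.000162). Nprl2, of the GATOR1 complex, rose by 0.50 (SE 0.08, edgeR adjusted p = 0.000114) and Sesn3, a sestrin, by 0.60 (SE 0.13, edgeR adjusted p = 0.00249). Of 11 MYC and NRF2 family factors, 1 was higher and 2 were lower, with a median of -0.23. Mlxip rose by 0.76 (SE 0.10, edgeR adjusted p = 3.03e-05). The falls of Nfe2l1 (-0.36, edgeR adjusted p = 0.0308) and Mycl (-0.36, edgeR adjusted p = 0.0484) were both lost with the satellite-like covariate (Nfe2l1 at -0.20, adjusted p = 0.354) and with no low-count filter (Nfe2l1 at -0.37, adjusted p = 0.0627). When single libraries were omitted, Mycl was still called in 4 of 20 fits and Nfe2l1 in 15 of 20. The count of lower factors was 0 without topical control 7, topical cKO 4, systemic control 3, systemic control 6 or systemic cKO 2, and 4 without systemic cKO 4. It was 1 without topical control 1, 3 or 6, topical cKO 2 or 7, systemic control 4, or systemic cKO 5, 6 or 7. The count of higher factors was 2 without systemic control 6.

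**Figure D4:**
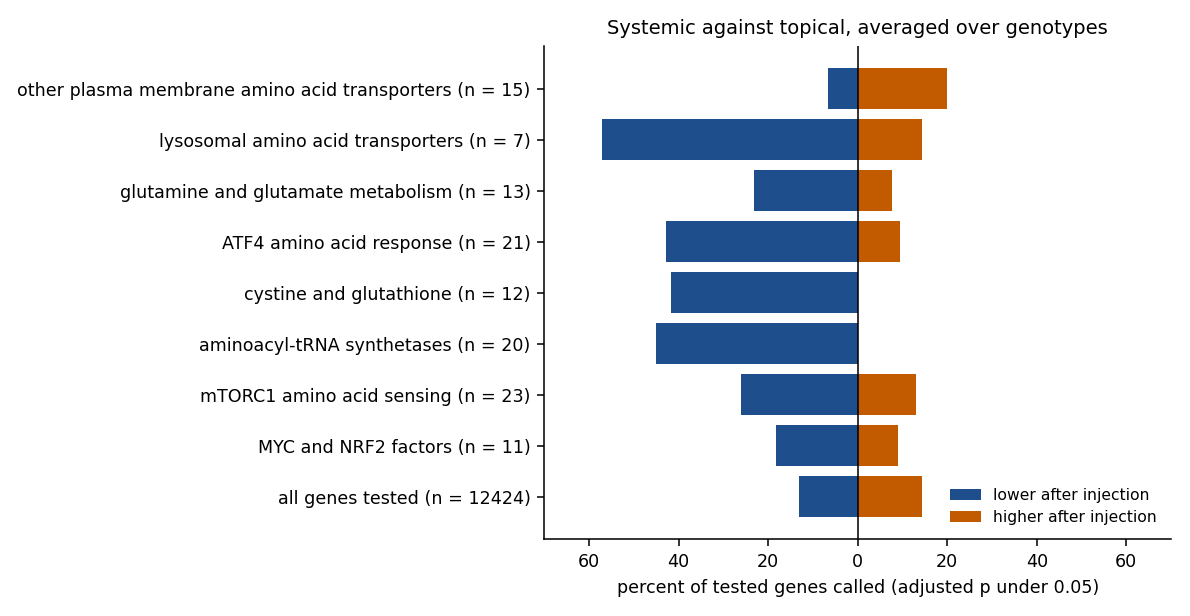
Percent of tested genes in each list called lower (bars to the left) or higher (bars to the right) in systemic against topical mice, averaged over genotypes, with all 12424 genes tested in the lowest bar. Aminoacyl-tRNA synthetases (45% lower, 0 higher) and the cystine and glutathione list (41.7% lower, 0 higher) have no bar to the right. Over all genes 13.1% were lower and 14.3% higher. The cystine and glutathione list also holds Hmox1 and Nqo1.

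The same lists, which hold 120 distinct tested genes, were read for genotype. With topical tamoxifen edgeR called 0 of the 120, where 0.129% of all genes were called. An unadjusted p under 0.05 was found for 6 of the 120, beside 703 of 12424 genes. Averaged over both routes, where 0.314% of all genes were called, 2 of the 120 were called, both higher in cKO mice: Got2 by 0.89 (SE 0.17, edgeR adjusted p = 0.0161) and Rraga by 0.67 (SE 0.12, edgeR adjusted p = 0.0154). With systemic tamoxifen 3 were called, all higher in cKO mice (1.36% of all genes were higher there): Got2 by 1.70 (SE 0.24, edgeR adjusted p = 0.000926), Rraga by 1.42 (SE 0.18, edgeR adjusted p = 0.000426) and Mfsd12 by 0.55 (SE 0.14, edgeR adjusted p = 0.0496). With the satellite-like covariate their differences were 0.93, 0.99 and 0.38, with edgeR adjusted p-values of 0.393, 0.285 and 1. That fit called 0 of all genes tested in this contrast, against 235 in the main fit. When single systemic libraries were omitted, Mfsd12 was still called in 1 of 10 fits, that without systemic cKO 2.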

How the data were processed

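The authors deposited 1 table of raw counts, whole-number reads per gene with no normalization, for 20 libraries. Per the submitters' processing notes, STAR and featureCounts were used with GRCm38 (mm10). Versions, annotation and strand setting are not given in the sources used here, so reads of a gene and an antisense partner cannot be told apart. Libraries are SmartSeq II and no molecular identifiers are named, so each count is a read.

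Counts were analysed in R 4.3.3 with edgeR 4.0.16: filterByExpr (minimum count 10, total 15; 12424 genes kept), TMM scaling, 1 coefficient per group over all 20 libraries, robust quasi-likelihood F tests, two-sided, with Benjamini-Hochberg adjustment over all genes tested. Calls are adjusted p-values under 0.05. CPM uses TMM-scaled library sizes, and CPM per kb uses the union of exons in GENCODE vM21 (GRCm38). Errors are SDs over mice or SEs of log2 fold changes. Alternatives used limma 3.58.1 (voom with quality weights), DESeq2 1.42.0, other filters, covariates and left-out libraries. Correlations used log2 CPM (prior count 2) minus group means and 100000 permutations within groups; they were chosen after seeing the data, as was the fit without the 6 libraries. Scripts were tested on simulated data.

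The members and the gene lists were chosen with earlier results of these data known. The text names the 8 members and, per list and contrast, up to 2 called genes in each direction with the smallest adjusted p. It also names the 5 genes most like Slc1a5. P-values of the main fit set differences against a spread between mice that is estimated over the 4 groups together. P-values of correlations come from the permutations within groups.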

Additional observations from a re-analysis of the deposited data

Results flagged for a closer look

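Each carrier was screened in each of the 4 groups of 5 libraries for 1 library far from the others, 32 groups in all. For roughly normal values, chance flags about 1 in 20. That rate does not hold for Slc38a1, which was at 0 in 2 or 3 libraries of each group. The screen marked 4. Slc38a1 stood apart in topical control 6 at 0.143 CPM (nearest library 0.037), in topical cKO 5 at 0.357 CPM (nearest 0.0392) and in systemic cKO 2 at 0.264 CPM (nearest 0.0351), values that rest on 2, 14 and 3 reads. Slc38a2 stood apart in systemic cKO 2 at 489 CPM, where the nearest library of its group had 389 CPM. That library is 1 of the 6 high in satellite-like transcripts, and whether the 2 facts are related was not tested. The interaction of Slc1a5 was not screened, because it chose the gene.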

How the results depend on the processing

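The fall of Slc7a1 in the averaged route contrast kept its call in 9 of 9 alternatives (adjusted p from 0.00178 to 0.0338) and in 20 of 20 fits that left out 1 library (-0.62 to -0.45, adjusted p up to 0.0222). Within controls, where 0 members were called, 1 was called (Slc7a1) with limma voom, the mitochondrial covariate, the replicate block and a fit of only the libraries compared. Within cKO mice 1 was called (Slc7a1) with the mitochondrial covariate, and 0 to 1 with 1 library left out; the 1 was without systemic cKO 6. The causes were not tested. The interaction of Slc1a5 was -1.08 with the satellite-like covariate and -1.45 to -1.37 otherwise, and -1.57 to -1.30 with 1 library left out. Among 834 values of 36 member differences, 1 per difference and setting, 57 values in 17 differences changed sign, all of them uncalled before and after, and they were counted as the same result. Numbers of all genes called varied widely: 9 to 42 for topical genotype (main 16), 0 to 1320 for systemic genotype (235), 118 to 3496 for route in controls (2277), 785 to 1709 in cKO (1145), 1506 to 4553 averaged (3405), 14 to 148 for averaged genotype (39) and 0 to 364 for the interaction (31). With 1 library left out they were 10 to 19, 81 to 787, 1463 to 2524, 746 to 1218, 2846 to 4027, 31 to 138 and 16 to 470. A minimum mean of 5 CPM removes Slc1a5 and Slc7a5, which therefore have no value there.

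Replicate numbers are shared between groups, but libraries with the same number did not deviate together: 6 of 14 pairs had a correlation over 0.1 (range -0.31 to 0.34), and 4 of 14 matched their own number best. With the replicate block Slc7a1 was -0.49 for averaged route (edgeR adjusted p = 0.00678) and -0.52 in controls (adjusted p = 0.0433), 1 member was called in controls as given above, and Oat (adjusted p = 0.0544) and Nfe2l1 (-0.36, adjusted p = 0.0599) lost their calls. Lower aminoacyl-tRNA synthetases went from 9 to 6, and lower MYC and NRF2 factors from 2 to 1.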
